A study of Mus musculus with 96 samples.

Results

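The genes described here are those of the proteasome that carry a Psm name, taken as the gene rows named Psma, Psmb, Psmc, Psmd, Psme, Psmf or Psmg with a number. By that rule 49 of 56941 gene rows were members. The proteasome is the protease of the cytosol and nucleus that breaks down proteins tagged with ubiquitin. Its 20S core is a barrel of alpha rings, which gate the entry, and beta rings, of which the subunits encoded by Psmb5, Psmb6 and Psmb7 hold the active sites; the 19S particle caps the barrel, recognises ubiquitin chains and unfolds the substrate with its ATPases. In immune cells and under interferon, Psmb8, Psmb9 and Psmb10 replace the constitutive catalytic subunits to form the immunoproteasome, which serves the supply of peptides for MHC class I, while in skeletal muscle the ubiquitin ligases Trim63 (MuRF1) and Fbxo32 (atrogin-1) are textbook marks of muscle wasting.

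RNA was sequenced from spleen, skeletal muscle, heart, brain, liver, kidney and small intestine of mice at 2 months of age. The genotypes were WT and 4 reprogrammable strains, 4Fj, 4FsB, 4Fk and 4FsA, made for inducing the reprogramming factors in the animal; which promoter drives the transgene, and whether an inducer was given, the sources at hand do not state. Spleen was taken from WT, 4Fj and 4FsA, and the other tissues from all 5 genotypes. The count table gives each library's tissue and no genotype, so that libraries were grouped by tissue, with 15 each, 14 of heart and 7 of spleen, and every spread below mixes genotypes. The labels do not say which libraries share an animal, and a p-value here measures only the spread between these libraries.

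Total estimated counts ran from 6624474 to 17882603 over the 96 libraries. The share of mitochondrially encoded genes was 2.05% to 78.8%, and 2 small intestine libraries, at 62.3% and 78.8%, exceeded 50%. Of 21 tissue markers, 16 were higher in every library of their own tissue than in any library of another, and no marker was at 0 in its own tissue. The other 5 overlapped: Apoa1 and Cyp2e1 of liver, Fabp2 and Vil1 of small intestine, and Myl7 of heart, whose median in heart was only 8.52 CPM. Levels are in CPM, the estimated count per 1000000 counts of the library, given as median with lowest and highest. In a whole tissue, fewer cells of a type and less RNA per cell cannot be told apart.

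Promoter sequences are shown for 4 members, since later results turn on how the constitutive and the immune genes moved. RefSeq promoter windows (build GRCm38.p6, 250 bases before to 50 after the start site) matched 41 of the 49 members, with 44 windows. The constitutive genes are known targets of Nfe2l1, which binds antioxidant response elements, and Psmb8 is known to be induced by interferon, which acts in part through gamma-activated sites in promoters. Capitals mark a match to the antioxidant response element core TGACNNNGC, read on either strand, in the first 3 stretches, which come from a catalytic beta subunit, a 19S ATPase and a 19S scaffold subunit, and to the gamma-activated site core TTCNNNGAA in the last.
Psmb5 (chr14:54618004-54618072, minus strand): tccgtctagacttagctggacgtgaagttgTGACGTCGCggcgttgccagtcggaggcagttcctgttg
Psmc6 (chr14:45329574-45329635, plus strand): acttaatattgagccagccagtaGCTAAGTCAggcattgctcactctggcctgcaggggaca
Psmd12 (chr11:107479278-107479319, plus strand): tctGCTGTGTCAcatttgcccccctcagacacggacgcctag
Psmb8 (chr17:34198068-34198136, plus strand): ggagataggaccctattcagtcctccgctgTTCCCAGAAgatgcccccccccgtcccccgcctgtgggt

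The antioxidant response element core was present in 6 of the 44 member windows (13.6%), against 12.4% of 32851 windows of all genes. The 6 genes were Psmb5, Psmb6, Psmc6, Psmd9, Psmd12 and Psme4. The gamma-activated site core was present in 3 (6.82%), those of Psmb8, Psmd2 and Psmg1, against 8.30% of all windows. The interferon-stimulated response element core was present in 5 (11.4%), those of Psmb3, Psmd4, Psmd9, Psme1 and Psmg4, against 3.44%. Only Psmd9 held matches to 2 of the motifs, and they did not overlap. A match describes letters in these windows and no binding.

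All 31 constitutive subunits of the 20S core and the 19S particle were expressed in all 7 tissues. In CPM on library totals, their levels differed little between tissues beside those of the immune subunits. Between the tissue of highest and that of lowest median CPM, these 31 genes differed by a median of 1.97-fold, from 1.38-fold for the ATPase gene Psmc1 to 3.41-fold for Psmb7. The same quantity was 141-fold for Psmb8, 210.4-fold for Psmb9 and 16.3-fold for Psmb10. It was 11.5-fold for Psme1 and 11.6-fold for Psme2, which encode the interferon-inducible PA28 cap, and 4.30-fold for Psme4, which encodes the PA200 cap. The immune genes and PA28 thus spanned a wider range of tissue medians than any constitutive subunit.

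**Figure D1:**
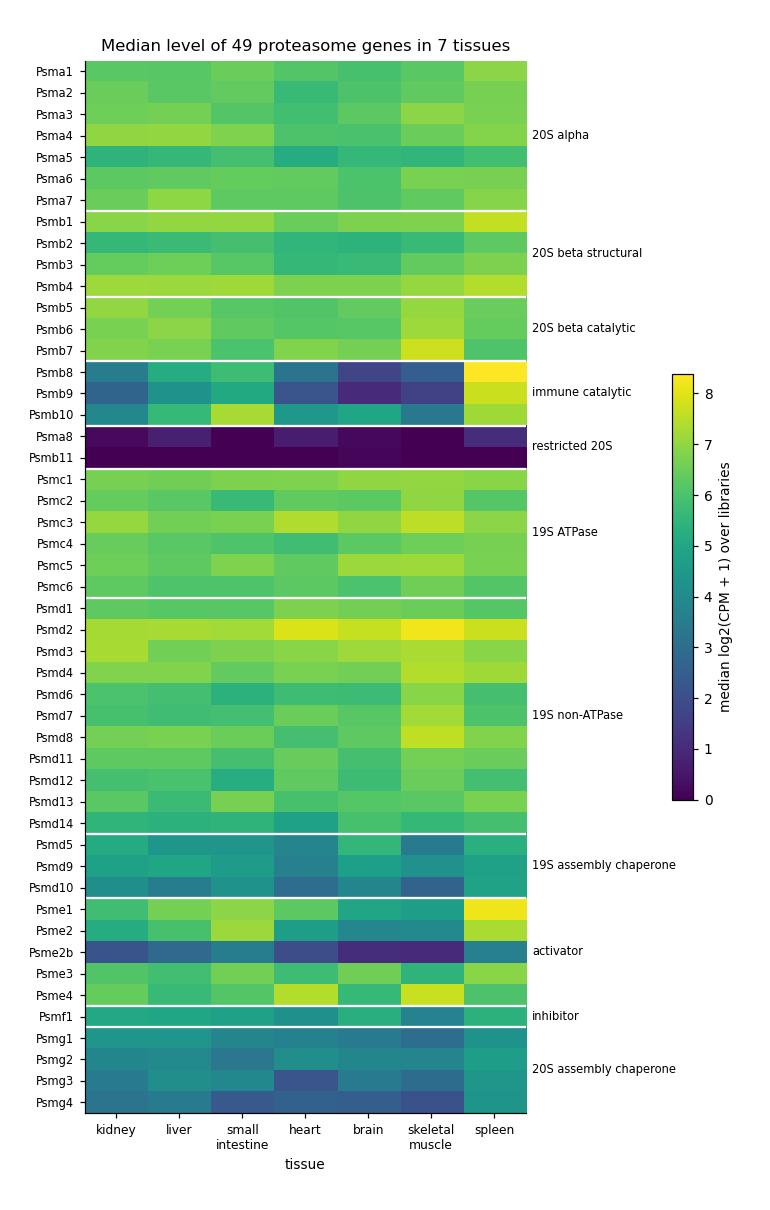
Median log2(CPM + 1) of the 49 proteasome genes (rows, grouped by role) over the libraries of each tissue (columns), with colour as the level. The constitutive subunits keep similar colours across a row, while Psmb8, Psmb9, Psmb10, Psme1 and Psme2 are brightest in spleen and small intestine and Psma8 and Psmb11 are near 0 throughout.

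The 14 constitutive 20S genes summed to a median of 1547 CPM in spleen (1190.3 to 1769.7), 1426 in skeletal muscle (979 to 3014), 1338 in liver (756 to 2932), 1319 in kidney (852 to 1853), 1183 in small intestine (157 to 2519.9), 964 in brain (812 to 2398) and 961 in heart (738 to 1222). Neighbours in this order overlapped over their libraries. The 17 genes of the 19S particle summed to a median of 2258 CPM in skeletal muscle (1209.9 to 6749), 1608 in spleen (1503 to 1801), 1603 in heart (1016 to 1863), 1577 in kidney (804 to 1943), 1538 in brain (1490.3 to 2444), 1332 in liver (698 to 2669) and 1274 in small intestine (187 to 3221). The 19S sums ranged 5.58-fold in skeletal muscle and 17.2-fold in small intestine, whose lowest value came from a library of high mitochondrial share; without those 2 libraries the small intestine sums began at 629 CPM and ranged 5.12-fold.

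By median CPM, the tissue that was highest depended on the role of the subunit. All 3 constitutive catalytic genes, 5 of the 6 ATPase genes and 8 of the 11 non-ATPase genes of the 19S particle had their highest median in skeletal muscle. All 4 structural beta genes were highest in spleen, and the 7 alpha genes were divided between liver, spleen, skeletal muscle and small intestine. This order holds for library totals. In the TMM-scaled fit given below, all 4 structural beta and all 7 alpha genes were called higher in skeletal muscle. Their median log2 differences were 1.29 and 1.21 there and -0.41 and -0.65 in spleen. Psmb7, which encodes the subunit of trypsin-like activity, was at 215 CPM in skeletal muscle (111 to 340.5) and 66.1 CPM in spleen (52.8 to 104), with no overlap between these tissues. Psmb5, of chymotrypsin-like activity, was at 131 CPM in skeletal muscle (96.4 to 299) and 86.9 in spleen (45.9 to 99.9), which overlapped. Psmb6, of caspase-like activity, was at 140.0 CPM in skeletal muscle (108 to 335) and 83.7 in spleen (79.2 to 126).

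Subunits that occur in equal numbers in the core did not have equal mRNA levels. Per kilobase of transcript, the 14 genes of the 20S core in skeletal muscle ran from 36.2 CPM per kb for Psma5, an alpha subunit, to 185 for Psmb7, with a median of 108. In spleen they ran from 45.7 CPM per kb for Psma5 to 145 for Psmb4, with a median of 111. Psma2 or Psma5 was the lowest per kilobase in each of the 7 tissues. Transcript lengths were medians over the protein-coding transcripts of a reference annotation and not those the authors counted on.

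Each tissue was compared with the mean of the other 6 in a single edgeR quasi-likelihood fit with TMM scaling, and a gene was called at a Benjamini-Hochberg adjusted p under 0.05 and a log2 difference of at least 1. Of the 49 members 48 passed the filter on low counts; Psmb11 did not. In skeletal muscle 32 members were called higher and 5 lower, where 18.8% and 26.2% of the 20100 genes tested were. The median log2 difference was 1.22 over the members and -0.31 over all genes. With library totals in place of TMM the counts were 9 higher and 12 lower, where 9.09% and 46.5% of all genes were, with medians of 0.33 and -1.14, so that the members lay 1.53 and 1.47 above the median of all genes under the 2 scalings and the counts of calls depended on the scaling.

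All 31 constitutive 20S and 19S genes were called higher in skeletal muscle with TMM, and with library totals the 9 called higher were among the 32. Among the non-ATPase subunits, Psmd8 was higher by 2.54 and Psmd4, a ubiquitin receptor, by 2.40 on the log2 scale. Psmb7 was higher by 2.11 and Psmb6 by 1.73, and the PA200 gene Psme4 by 2.65, with 206 CPM in skeletal muscle (73.4 to 548) and 171 CPM in heart (101 to 263) against medians of 47.9 to 83.1 in the other 5 tissues. Psmb8 was lower by 1.47 and Psmb9 by 1.80 in size of log2. None of the 4 chaperones of 20S assembly and none of the 3 of 19S assembly were called. Of 13 tested partners of the proteasome that carry other names, 9 were called higher and none lower.

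In spleen 7 members were called higher and 11 lower, where 21.8% and 20.5% of all genes were. The 7 were the 3 immune subunits, Psme1, Psme2, Psme2b and Psma8, and among the 11 were Psmb7, Psmb5, Psme4, 3 ATPase genes and 5 non-ATPase genes. With library totals 11 members were higher and 0 lower, where 40.4% and 9.74% of all genes were, so that the lower calls were lost under that scaling. DESeq2 called 7 higher and 8 lower, where 20.8% and 23.1% of all genes were, and the 8 were among the 11. Psme2 and Psme2b are near-identical copies whose counts may be divided by the counting, and Psme2b never exceeded 24.8 CPM.

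In brain no member was called higher and 12 were lower, where 29.4% and 24.1% of all genes were; they included Psmb8, Psmb9, Psme1, Psme2 and Psme4. In liver 9 were higher and none lower, against 18.8% and 21.5%, among them Psmb8, Psmb9, Psme2 and the assembly chaperones Psmg1, Psmg3 and Psmg4. Small intestine had 5 higher and 1 lower, against 22.2% and 19.7%, and the 5 were the 3 immune subunits, Psme2 and Psme2b. Kidney had 0 higher and 3 lower, against 32.4% of all genes called in either direction, and the 3 were the immune subunits. Heart had 2 higher and 1 lower, against 36.7% called in either direction, with Psme4 higher by 1.57 and the assembly chaperone Psmg3 lower by 1.32 in size of log2. In these 5 tissues the members' share of calls was near or under that of all genes. The same held in spleen, at 14.6% of members higher and 22.9% lower against 21.8% and 20.5% of all genes.

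The immune subunits were compared with the constitutive subunits that they replace by the log2 ratio of their counts within a library, which does not depend on library scaling. In spleen the immune genes made up 72.8% of the counts of the 6 catalytic genes (62.9% to 77.5%). The share was 51.5% in small intestine (15.95% to 75.3%), 22.4% in liver (10.1% to 48.7%), 12.04% in brain (8.80% to 13.6%), 11.8% in heart (8.12% to 29.1%), 8.09% in kidney (2.25% to 18.5%) and 3.58% in skeletal muscle (0.701% to 10.1%). Spleen and skeletal muscle thus stood at the ends, and small intestine held the widest spread.

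Psmb8 was at 333 CPM in spleen (174 to 398), 53.7 in small intestine (2.16 to 222), 35.6 in liver (14.04 to 91.3), 10.7 in kidney (3.72 to 29.9), 8.40 in heart (5.58 to 29.3), 4.64 in skeletal muscle (0.861 to 15.1) and 2.36 in brain (0.805 to 10.1). Psmb9 followed the same order with 207 CPM in spleen (85.6 to 236), 32.8 in small intestine (0.836 to 128), 18.3 in liver (1.94 to 65.7), 5.49 in kidney (1.24 to 14.9), 3.58 in heart (1.39 to 16.6), 2.10 in skeletal muscle (0.157 to 4.86) and 0.984 in brain (0.367 to 5.24). Psmb10 had another order: 155 CPM in small intestine (7.73 to 319), 145 in spleen (71.4 to 216), 47.8 in liver (17.8 to 135), 30.5 in brain (17.3 to 50.4), 21.0 in heart (12.8 to 56.4), 13.9 in kidney (4.29 to 25.5) and 9.51 in skeletal muscle (3.14 to 23.4). In brain, the tissue of lowest Psmb8 and Psmb9, every library had at least 17.3 CPM of Psmb10.

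Of 18 exact 2-sided permutation tests of a ratio between spleen and another tissue, 17 passed after Benjamini-Hochberg adjustment over the 18, and in 14 the libraries of the 2 tissues did not overlap. The smallest p was 5.9e-06 (adjusted 9.6e-06), the smallest that 170544 splits can give. Ratios of other gene pairs were not tested, so the counts of 17 and 14 do not show these pairs to be unusual. In the edgeR tissue fit 21.8% of all genes were called higher and 20.5% lower in spleen. The mean log2 ratio of Psmb8 to Psmb5 was 1.92 in spleen and -5.28 in skeletal muscle, a difference of 7.20 (exact permutation, adjusted p = 9.6e-06), with all 7 spleen libraries above all 15 of muscle. For Psmb9 to Psmb6 the means were 1.01 and -6.62, a difference of 7.63 (exact permutation, adjusted p = 9.6e-06). The ratio of Psmb10 to Psmb7 was the exception in small intestine, with a mean of 0.90 against 1.03 in spleen, a difference of 0.13 (exact permutation, p = 0.82, adjusted p = 0.82); without the 2 small intestine libraries of high mitochondrial share the difference was -0.03.

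Markers of immune cells were far higher in spleen than elsewhere, and among the other tissues their order depended on the marker. The 8 genes of that list, among them Ptprc (CD45), the T cell gene Cd3e and the myeloid gene Lyz2, summed to 4772 CPM in spleen (4135 to 5654) and to medians of 97.2 in heart, 49.01 in small intestine, 33.7 in skeletal muscle and 19.4 in brain. The sum was 72.1 in liver and 34.2 in kidney, and it ran from 0 to 678 CPM in small intestine and from 15.2 to 52.9 in skeletal muscle. By this sum heart stood above small intestine and brain below skeletal muscle, unlike in the immune share. Lyz2 had the same order, with medians of 81.6 CPM in heart, 35.3 in small intestine, 25.7 in skeletal muscle and 5.81 in brain. Ptprc had the reverse order in both pairs, at 5.65 CPM in heart, 6.49 in small intestine and 2.50 in brain. It was at 797 CPM in spleen (587 to 1327) and 1.03 in skeletal muscle (0.109 to 3.34). The other markers were divided: Adgre1 was higher in heart than in small intestine, and Cd3e was lower. The part of immune cells in the ratios was not tested.

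**Figure D2:**
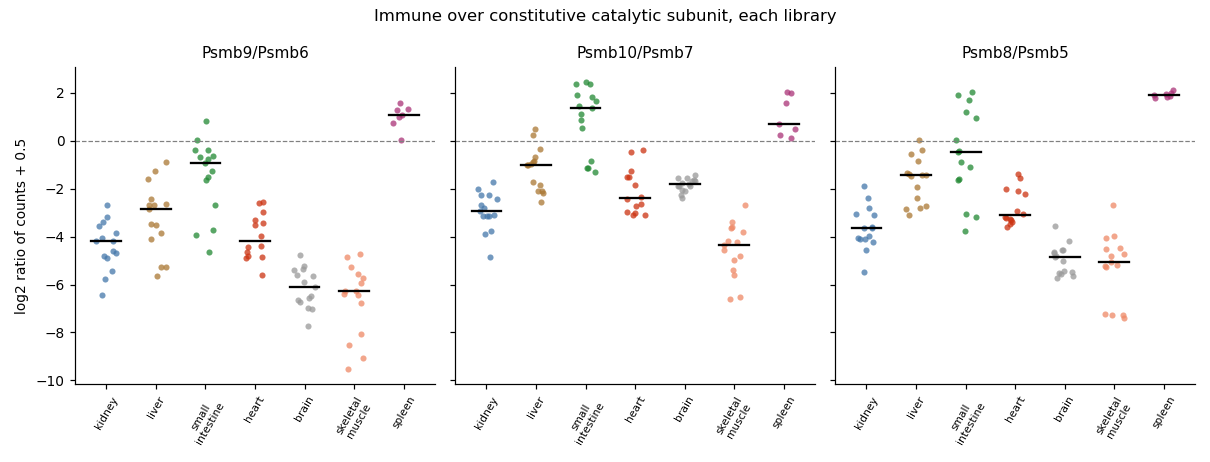
Log2 ratio of the counts of each immune subunit to the constitutive subunit it replaces, 1 point per library, with 0.5 added to each count and the black line at the tissue median. All 7 spleen libraries lie above 0 in each panel, small intestine crosses 0, and every skeletal muscle library lies below -2.

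The other caps and restricted subunits gave further tissue differences. PA28, as the sum of Psme1 and Psme2, was at 442 CPM in spleen (226 to 742), 266 in small intestine (13.2 to 507), 157 in liver (75.7 to 305), 103 in heart (77.5 to 149), 90.2 in kidney (63.8 to 139), 43.2 in brain (27.7 to 98.1) and 40.8 in skeletal muscle (17.2 to 89.1). Psme3, which encodes the nuclear PA28 gamma cap, was between 42.7 CPM in skeletal muscle and 119 CPM in spleen and was called in no tissue. The 19S assembly chaperone gene Psmd5 had its highest median in brain at 45.8 CPM (27.5 to 76.9) and its lowest in skeletal muscle at 10.1 CPM (5.00 to 18.9), with no overlap. Psma8, the alpha subunit of the testis, was at most 2.05 CPM, and Psmb11, the thymus subunit, at most 1.09 CPM in any library, near the 0.168 to 0.453 CPM that 3 counts amount to.

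In skeletal muscle 23 of the 31 constitutive 20S and 19S genes rose with Trim63 and none fell, while the 3 immune catalytic genes fell. Trim63 ran from 76.2 to 8310.3 CPM with a median of 348, a 109-fold range, and Fbxo32 from 86.3 to 4945 CPM with a median of 453. Over the same 15 libraries the 19S sum ranged 5.58-fold, the 20S sum 3.08-fold and the immune sum 8.98-fold, from 4.40 to 39.5 CPM with a median of 16.9. The edgeR quasi-likelihood slope on log2(Trim63 CPM + 1) is given as log2 change per doubling of Trim63, a gene being called at an adjusted p under 0.05. Of the 47 members tested, 26 were called higher and 7 lower, where 20.7% and 16.8% of the 13259 genes tested were. The median slope was 0.20 over the members and -0.01 over all genes. The libraries mix genotypes that the count table does not give, so a difference between genotypes cannot be told apart from these slopes.

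**Figure D3:**
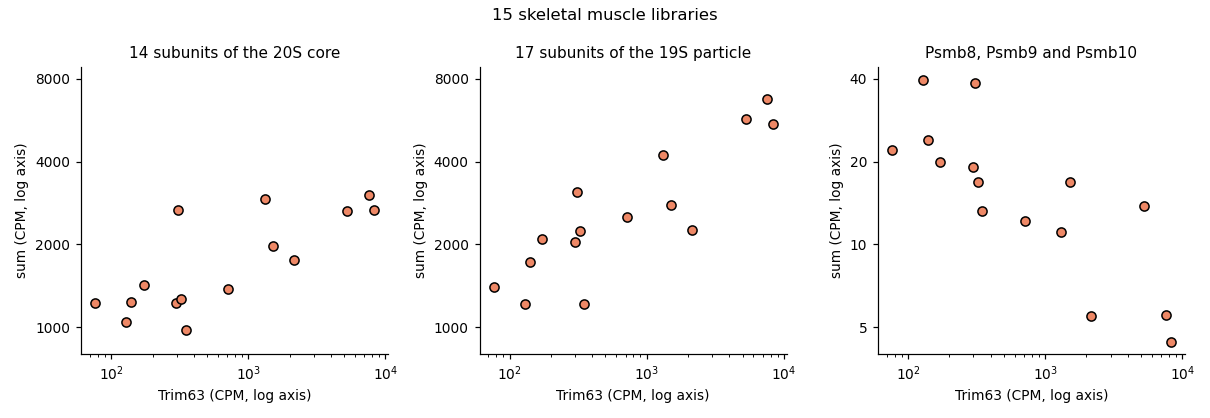
Summed CPM of the 14 constitutive 20S genes, the 17 genes of the 19S particle and the 3 immune subunits against Trim63 in the 15 skeletal muscle libraries, 1 point per library, all axes logarithmic. The 3 libraries of highest Trim63, from 5263 CPM, hold the highest 19S sums, and the immune sum lies between 4.40 and 13.8 CPM in them.

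The 19S particle held most of the genes that rose. Of its 11 non-ATPase genes 10 rose, and of its 6 ATPase genes 5. Psmd11, which encodes a scaffold subunit of the lid, had the largest slope among the members, at 0.48 (SE 0.04, edgeR adjusted p = 7.8e-07), which is a fitted 9.26-fold over the range of Trim63. It was at 99.2 CPM (33.9 to 554), and the 3 libraries of highest Trim63 had 422 to 554 CPM against 33.9 to 165 in the other 12. Psmd1, a large base subunit that binds ubiquitin receptors, followed with a slope of 0.37 (SE 0.06, adjusted p = 8.4e-05) and was at 299.6 to 418 CPM in those 3 libraries against 27.7 to 154 in the others. Psmc2 had the largest ATPase slope, at 0.31 (SE 0.04, adjusted p = 6.1e-05), and Psmc4 the next, at 0.30 (SE 0.06, adjusted p = 0.0011). Psmc5 missed the threshold at 0.14 (adjusted p = 0.050), as did Psmd13 at 0.13 (adjusted p = 0.16).

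Of the 20S core, 5 of 7 alpha, 2 of 4 structural beta and 1 of 3 constitutive catalytic genes rose. Psma5 had a slope of 0.34 (SE 0.05, adjusted p = 1.3e-04), with 119.8 to 151 CPM in the 3 libraries of highest Trim63 and 20.9 to 96.2 in the others. Psma7 had 0.32 (SE 0.07), Psmb2 0.28 (SE 0.05) and Psmb3 0.22 (SE 0.08). Among the catalytic genes Psmb7 rose with 0.14 (SE 0.05, adjusted p = 0.038), while Psmb5 had 0.08 (SE 0.07, adjusted p = 0.39) and Psmb6 0.00 (SE 0.08, adjusted p = 0.99). Psmb6 was at 140.0 to 158 CPM in the 3 libraries of highest Trim63, within the 108 to 335 CPM of the whole tissue.

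The immune catalytic genes all fell with Trim63. Psmb9 had a slope of -0.48 (SE 0.11, edgeR adjusted p = 0.0023), Psmb8 of -0.43 (SE 0.10, adjusted p = 0.0032) and Psmb10 of -0.34 (SE 0.08, adjusted p = 0.0031). Psme1 and Psme2 fell as well, with -0.25 (SE 0.07) and -0.22 (SE 0.06), whereas the caps Psme4 and Psme3 rose with 0.24 (SE 0.05) and 0.19 (SE 0.03). Psmf1, which encodes the proteasome inhibitor PI31, rose with 0.21 (SE 0.04), to 26.0 to 33.5 CPM in the 3 libraries of highest Trim63 from 6.24 to 16.1 in the others. Of the 4 assembly chaperones of the 20S core Psmg1 and Psmg2 fell, with -0.23 (SE 0.07) and -0.19 (SE 0.06), and none of the 3 of the 19S particle was called.

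**Figure D4:**
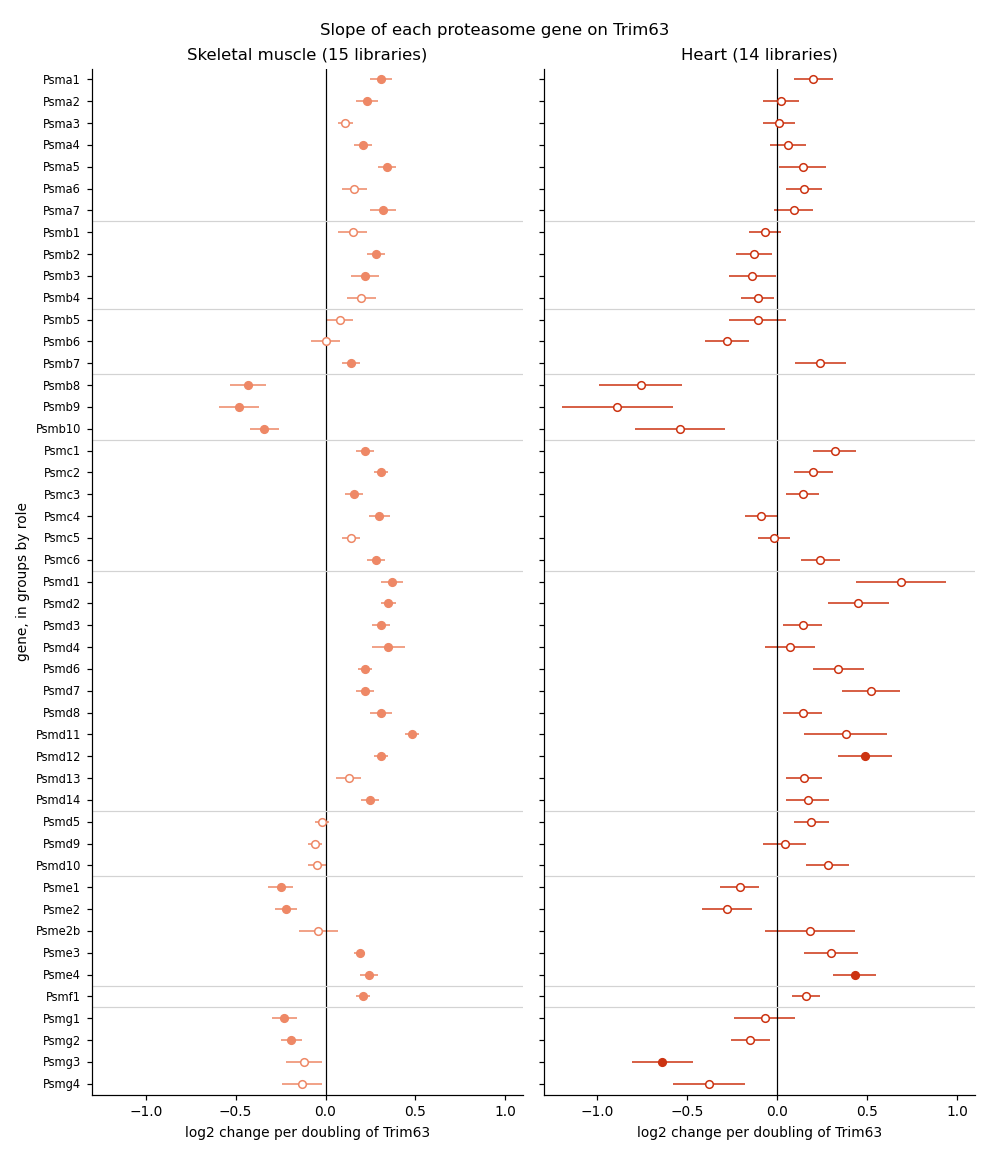
Slope of each member on log2(Trim63 CPM + 1) with its standard error in skeletal muscle and heart, filled where the edgeR adjusted p was under 0.05. In skeletal muscle 26 genes lie to the right of 0 with filled points and 7 to the left; in heart 3 points are filled.

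Companion genes were counted over whole lists, beside 20.7% of all genes called higher and 16.8% lower. Of 13 tested partners of the proteasome without a Psm name, 10 rose and none fell, with the largest slopes in Zfand2a (0.59), which encodes a 19S-binding stress protein, and in Ddi2, Zfand5 and Nfe2l2 (0.35 each). Of 16 genes of ubiquitin supply and shuttling 14 rose and none fell, among them the Vcp cofactor Nploc4 with 0.56 (SE 0.06) and the shuttle Ubqln1 with 0.39 (SE 0.05). Of 11 genes of muscle ligases and atrophy beside Trim63 itself 8 rose, with Fbxo32 at 0.85 (SE 0.06), the cell cycle inhibitor Cdkn1a at 0.83 (SE 0.09) and the transcription factor Foxo1 at 0.54 (SE 0.09). Of the 11 interferon genes tested 9 fell and none rose, with a median slope of -0.50; Gbp3 had -0.68, Cxcl9 -0.56 and Gbp7 -0.54. Of 10 genes of class I antigen processing 3 fell (Tap1, Tap2 and B2m) and Pdia3 rose.

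Several measures moved with Trim63 beside these genes. The 3 libraries of highest Trim63, at 5263 to 8310.3 CPM, had 6.03% to 9.32% mitochondrially encoded counts against 4.67% to 43.4% in the other 12. The slow-fibre myosin gene Myh7 had a slope of -1.12 and was called lower, and the liver genes Alb and Apoa1 had 1.26 and 0.92 and were called higher; their part in the result was not tested. With the mitochondrial share as a second term 31 members rose and 7 fell, where 19.99% and 18.3% of all genes did. Without those 3 libraries 12 members were called higher and 0 lower, where 2.39% and 0.536% of all genes were, and the median slope of the members was 0.25. The 12 were among the 26. Without those libraries the immune subunits were not called, with slopes of -0.46 for Psmb8 (SE 0.16, edgeR adjusted p = 0.15), -0.46 for Psmb9 (SE 0.16, adjusted p = 0.12) and -0.21 for Psmb10 (SE 0.12, adjusted p = 0.34). The 8 immune cell markers summed to 15.2 to 27.3 CPM in the 3 libraries and 17.9 to 52.9 CPM in the others, with Cd3e at -0.70 and Lyz2 at -0.19 called lower; their part in the slopes of the immune subunits was not tested.

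The ratio of the 19S to the 20S sum was 2.05 to 2.24 in the 3 libraries of highest Trim63 and 1.14 to 1.84 in the other 12. The same libraries leaned to long transcripts, measured as the slope of each library's deviation from its tissue median on log2 transcript length, which was 0.16 to 0.22 in the 3 and -0.17 to 0.17 in the others. The 19S transcripts had a median length of 1526 bases and those of the 20S core 975; the part of the lean in this ratio was not tested. With the lean as a second term 34 members rose with Trim63, all of the 26 among them, and 4 fell, where 20.7% and 18.5% of all genes did. The lowest ratio of the 96 libraries, 0.63, was in a liver library with a lean of -0.31. Other liver libraries, at a lean of -0.08 to 0.07, had ratios from 0.86 to 1.37. The brain libraries of lowest lean, -0.31, had ratios of 1.02 and 1.05, and the brain library of highest ratio, 1.89, had a lean of 0.14.

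**Figure D5:**
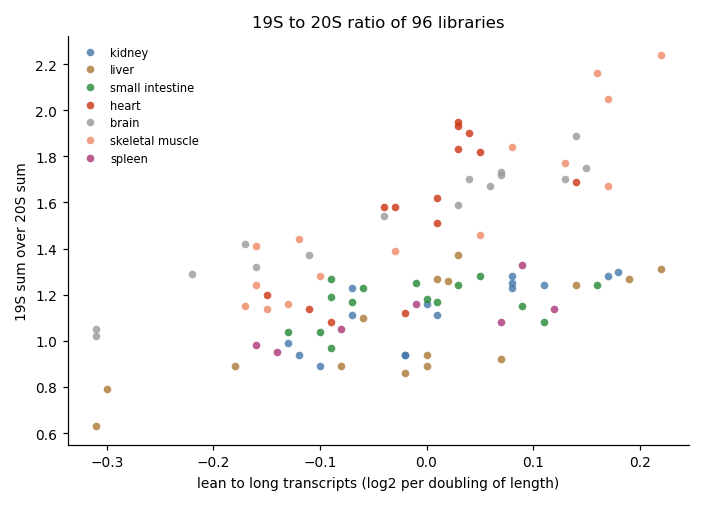
Ratio of the summed 19S to the summed 20S genes in each of the 96 libraries against the library's lean to long transcripts, coloured by tissue. Libraries leaning to short transcripts, at -0.31, have ratios from 0.63 to 1.05, and the highest ratio, 2.24 in skeletal muscle, lies at a lean of 0.22.

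In heart the relation to Trim63 was tested over a narrower range. Trim63 ran from 46.5 to 266 CPM, a 5.72-fold range, over 14 libraries, and the 20S sum ranged only 1.66-fold. Of 48 members tested 2 were called higher, Psmd12 at 0.49 (SE 0.15, edgeR adjusted p = 0.048) and Psme4 at 0.43 (SE 0.12, adjusted p = 0.044), where 3.12% of the 14561 genes tested were. Psmg3 was called lower, at -0.64 (SE 0.17, adjusted p = 0.039), where 4.96% of all genes were. DESeq2 called 7 higher and 3 lower, where 10.01% and 7.51% of all genes were. The immune genes had slopes of -0.54 to -0.89 and were not called, with Psmb8 at -0.76 (SE 0.23, adjusted p = 0.050). The 2 libraries of lowest Trim63 had the highest immune sums, 97.1 and 100.1 CPM, against 21.7 to 79.6 in the other 12.

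The difference between the muscle and the heart slopes was tested as an interaction. No member was called, where 2.90% and 1.27% of 15590 genes were called higher and lower in skeletal muscle. At an unadjusted p under 0.05 edgeR counted 4 of 48 members and 3442 of the 15590 genes. DESeq2 counted 3 members and 3580 genes, with 0 members called after adjustment. The slopes of the 2 tissues were thus not shown to differ, and the interaction does not show them to be alike.

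Of the 6 members with an antioxidant response element core in the promoter window, Psmc6, Psmd12 and Psme4 rose with Trim63 in muscle, and Psmb5, Psmb6 and Psmd9 were not called. Of the 3 with a gamma-activated site core, Psmb8 and Psmg1 fell and Psmd2, a 19S scaffold subunit, rose with 0.35 (SE 0.04). Of the 5 with an interferon-stimulated response element core, Psmb3 and Psmd4 rose, Psme1 fell, and Psmd9 and Psmg4 were not called. These are counts of a few genes, beside 20.7% of all genes called higher and 16.8% lower.

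Within 6 tissues each gene was also set against the level of 12 interferon genes, the mean log2(CPM + 1) of a list with no proteasome gene, as a slope per unit of that level. Psmb9 had a positive slope in all 6 tissues, from 0.72 in small intestine to 2.28 in brain, and was called in 5, small intestine being the exception. Psmb8 was called in 4, with slopes of 0.61 to 2.18, and Psmb10 in heart and brain. The brain slope of Psmb10 was 0.81, and -0.01 with the lean to long transcripts as a second term. Psme1 and Psme2 were called in brain alone among the 6, with slopes of 0.20 to 0.86 and 0.09 to 1.06 over the tissues, and the brain slope of Psme1 turned from 0.86 to -0.17 with that term. With Ptprc as a second term no member was called in any of the 6 tissues, but hardly any gene was: 0.493% higher and 1.12% lower in brain, and at most 0.0259% in either direction in the other 5. The slopes of Psmb9 in that fit were 1.33 in kidney (1.26 without the term), 1.48 in liver (1.19), 1.19 in heart (1.68), 1.37 in brain (2.28) and 1.31 in skeletal muscle (1.39). In skeletal muscle the median slope of the members was -0.67 with the term and -0.61 without it. With the term 30 of 47 members and 2544 of 13249 genes had an unadjusted p under 0.05 in edgeR.

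By tissue, 2 members of 47 were called higher and 0 lower in kidney (0.444% and 0.379% of genes), both of them immune subunits. In heart 4 were higher and 1 lower (5.75% and 3.32%), the 4 being the 3 immune subunits and Psmg3. Liver had 1 higher, Psmb9, and 15 lower (7.97% and 9.93%), and skeletal muscle had Psmb8 and Psmb9 higher and 26 lower (20.3% in either direction). Small intestine had none in either direction (0.00604% and 0%). There 5 of 47 members and 1337 of 16553 genes had an unadjusted p under 0.05 in edgeR. DESeq2 called 1 member higher, where 0.532% of genes were. Of the 31 constitutive 20S and 19S genes, 12 were called lower in liver and 25 in skeletal muscle, and none higher in either. In skeletal muscle the interferon level was 1.02 to 1.65 in the 3 libraries of highest Trim63 and 1.09 to 3.03 in the others. The interferon and Trim63 slopes of muscle are thus not separate results, and no fit held both.

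Brain differed in that 37 members were called higher and 1 lower, where 23.0% and 21.6% of genes were. The 3 libraries of highest 20S sum also had the highest interferon levels. Their 20S sums were 1749.9 to 2398 CPM against 812 to 1226 in the other 12. Their interferon level was 2.13 to 2.58 against 1.25 to 1.93, and their Ptprc 6.17 to 11.4 CPM against 1.25 to 4.22. Those 3 also leaned to short transcripts, at -0.31 to -0.22 against -0.17 to 0.15, and their ratio of 19S to 20S was 1.02 to 1.29 against 1.32 to 1.89. Without them 0 members were called in either direction, where 1.91% and 3.07% of all genes were. The 3 were picked by the members' own level, so that leaving them out could lower the members' slopes by the choice alone. In that fit 4 of 47 members and 3935 of 16270 genes had an unadjusted p under 0.05 in edgeR. With the lean as a second term 1 was called higher and 0 lower, where 1.56% and 2.89% of all genes were. Calls were thus lost over all genes in both fits, and the members' slopes shrank as well. The median slope of the members was 0.74 in the main fit, 0.23 without the 3 libraries and 0.10 with the lean. Over all genes it was -0.02, -0.01 and -0.02.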

How the data were processed

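Per the labels' protocols, total RNA of frozen tissue went to a company for cDNA library sequencing. Build GRCm39 and DESeq2 (version not given) appear in the submitters' processing notes; the aligner, counter, annotation and strandedness were not given in the sources used here, so overlapping and antisense genes and close copies are uncertain. Estimated counts per gene were deposited by the authors (26.8% of the values above 0 were not whole within 1e-06) with a second table of normalised signal made by a method that is not given. Rows without a gene name (310, at most 0.113% of a library) stayed in the totals. Columns name a tissue and no genotype, and libraries were assigned to no genotype.

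CPM was the estimated count over the library total, times 1000000. Estimated counts were rounded and tested with edgeR 4.0.16 (TMM, filterByExpr, glmQLFTest, Benjamini-Hochberg over all genes tested); DESeq2 1.42.0 and limma 3.58.1 on log2(deposited signal + 1) were alternatives, in R 4.3.3. Ratios used counts + 0.5 and exact permutation tests. Levels, ratios and plots were computed in Python 3.11.15 with numpy 2.4.6, pandas 2.3.3 and matplotlib 3.10.9. Transcript lengths came from GENCODE, and promoter windows from RefSeq (GRCm38.p6), an earlier build than the files'. Of 637 pairs of libraries within a tissue none agreed within sampling noise (lowest chi-square per gene 6.24). The model fits were tested on simulated data with known changes. Floors of 3 counts cover counting error only.

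The members and the gene lists were chosen with earlier results of these data known. Named were the catalytic, restricted and cap subunits, the inhibitor and, per comparison, up to 2 called members of each role by size. Companion genes came from whole lists, of which some members are not reported here by name; for the interferon slope only the immune subunits and PA28 were named with slopes. Alternatives changed the scaling, the filter, the tool, the libraries and the added terms; those on the signal, the transcript lean, the sets of 3 libraries and the block on running numbers were chosen after seeing the data.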

Additional observations from a re-analysis of the deposited data

Results flagged for a closer look

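Of 58 members and sums checked in the 7 spleen libraries, 4 had a library far from the others; chance flags about 1 in 20 groups. The lowest Psmb5 value was 45.9 CPM, with the next at 85.0. The lowest Psmb9 value was 85.6 CPM, with the next at 185. The immune sum of Psmb8, Psmb9 and Psmb10 was lowest at 331 CPM, with the next at 651. These 3 values came from a single library. It was also the lowest for Psmb8 (174 CPM, the next 299), Psmb10 (71.4, the next 125), Psme1 (162, the next 237), Psme2 (64.1, the next 139) and the 20S sum (1190.3, the next 1409.7), while its Psmb6 at 83.3 CPM and Psmb7 at 66.1 CPM lay among those of the other 6 and its Ptprc was 596 CPM. The highest Psmf1 value was 82.8 CPM, with the next at 53.8.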

How the results depend on the processing

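Counts are of members called higher or lower, with the share of all genes in parentheses. With library totals in place of TMM, kidney had 1 lower (10.2%), liver 1 higher (14.3%) and heart 5 lower (27.2%). Brain had 1 higher and 6 lower (37.5% and 16.5%), skeletal muscle 9 and 12 (9.09% and 46.5%) and spleen 11 and 0 (40.4% and 9.74%). On the deposited signal with limma small intestine had 2 lower (32.1%), brain 6 lower (21.7%) and spleen 7 lower (23.8%). Without a filter brain had 1 higher (21.5%).

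For the Trim63 slope in skeletal muscle, leaving out the 3 libraries of highest Trim63 gave 12 higher and 0 lower (2.39% and 0.536%). The lean to long transcripts as a second term gave 4 lower (18.5%). In heart, no filter gave 1 higher and 0 lower (1.62% and 2.45%). DESeq2 gave 7 higher and 3 lower there (10.01% and 7.51%), and library totals 2 lower (4.57%).

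For the interferon slope, Ptprc as a second term gave 0 in both directions in kidney, liver, heart, brain and skeletal muscle. The shares there were 0.493% and 1.12% in brain and at most 0.0259% in the others. The lean as a second term gave 4 higher in kidney (0.165%), 5 higher and 9 lower in liver (8.86% and 11.9%) and 0 lower in heart (0.550%). It gave 1 higher and 0 lower in brain (1.56% and 2.89%) and 6 higher in skeletal muscle (12.7%). DESeq2 gave 1 lower in kidney (1.57%), 2 higher in liver (14.02%) and 1 higher in small intestine (0.532%). It gave 9 lower in heart (9.64%) and 2 lower in brain (25.05%). Library totals gave 2 higher and 9 lower in liver (9.52% and 7.51%), 2 lower in heart (3.37%) and 14 lower in skeletal muscle (3.66%). Without the 3 brain libraries of highest 20S sum brain had 0 and 0 (1.91% and 3.07%). With the lean as a second term the brain slopes of Psmb10 and Psme1 turned to -0.01 and -0.17. Psmb10 to Psmb7 between spleen and small intestine turned from 0.13 to -0.03 without the 2 libraries of high mitochondrial share. The cause of these moves was not tested, beyond the fewer libraries or the added term that define them.

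Of the other 172 alternatives for a count or a ratio, all stayed within 1.5 times the count or on the same side of the threshold. For single genes, 586 alternatives kept the direction and the call, 95 kept the direction and lost the call, and 2 turned.

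The columns carry running numbers that recur across tissues and that no label ties to an animal. Of 261 pairs of libraries with the same number in 2 tissues, 149 (57.1%) had deviations from the tissue means that correlated above 0.1. Of 3662 pairs with different numbers 21.0% did, and the median correlations were 0.13 and -0.02. In 109 of 522 comparisons the best match in the other tissue had the same number. Libraries of the same number were thus more alike than others, and whether they share an animal is not known. The main tissue fit and the permutation tests nevertheless treated all libraries as independent. With the running number as a replicate block, chosen after seeing the data, skeletal muscle had 31 members higher and 5 lower (18.4% and 26.5% of all genes). Spleen had 6 and 10 (22.1% and 20.7%), brain 0 and 10 (30.6% and 22.8%) and liver 8 and 0 (17.3% and 22.7%). Kidney, small intestine and heart had the same counts as without the block. No member was called in the difference between the muscle and heart slopes, where 0% and 0.0128% of genes were. There 17 of 48 members and 3171 of 15590 genes had an unadjusted p under 0.05 in edgeR.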
